A study of Mus musculus with 96 samples.

Results

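Glutamate receptors and the scaffold proteins that hold them at the synapse were followed as a set of 48 genes, of 48795 genes in the deposited table, chosen by gene symbol: 4 AMPA receptor subunits, 5 kainate receptor subunits, 8 NMDA and delta receptor subunits, 7 metabotropic receptors, 10 auxiliary subunits and 14 scaffold proteins. The 96 RNA-seq libraries came from 48 mice of the C57BL/6 background at the age of 6 months, each dissected for striatum and cerebral cortex. The mice were wild type, Q140 (with 1 knock-in allele that carries an expanded CAG tract in Htt, the gene mutated in Huntington's disease), Msh6+/-, Msh6-/-, Q140 Msh6+/- or Q140 Msh6-/-, with 8 mice per genotype, 4 of them male, and every mouse gave both tissues. Msh6 is a DNA mismatch repair gene, and the cross asks whether its loss alters the effect of the Q140 allele. Wild-type and Q140 mice are also called Msh6+/+ here, since their labels name no Msh6 allele. The labels name no Cre driver, transgene promoter or other restriction to a cell type for any of these alleles.

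Glutamate released at excitatory synapses opens ionotropic receptors (AMPA, kainate and NMDA) and activates G protein-coupled metabotropic receptors. Auxiliary subunits set the gating and the surface delivery of the AMPA and kainate receptors, and scaffolds of the Dlg, Dlgap, Shank and Homer families link the receptors to each other, to signalling enzymes and to actin. In the striatum, projection neurons receive such input from cortex and thalamus, and these neurons are the cells most affected in Huntington's disease.

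Of the 48 genes, 47 passed the count filter in each tissue. The remaining one, Grm6, a metabotropic receptor of retinal bipolar cells, averaged 0.125 reads per library in striatum and 0.188 in cortex, with at most 2 reads in any library, and was not tested. Library totals ran from 12.4 M to 22.9 M counts (M, mega). Msh6 transcript followed the labels: in striatum it was 17.4 ± 1.28 CPM (counts scaled to the library total adjusted by TMM, edgeR's factor for composition; mean ± SD, n = 8) in wild type, 13.8 ± 1.30 in Msh6+/- and 8.09 ± 1.32 in Msh6-/- mice. Summed over 12 markers of striatal projection neurons, wild-type striatum held 14950 to 17140 CPM and wild-type cortex 559 to 678, while 8 markers of cortical glutamatergic neurons summed to 31.8 to 44.4 CPM in striatum and 2133 to 2263 in cortex. One Q140 Msh6-/- striatal library (mouse 21-3) held 2717 CPM of choroid plexus markers, against a median of 31.5 in its group. Without it, the Q140 Msh6-/- against Msh6-/- comparison in striatum gave 8 members higher and 23 lower, against 8 and 24 with it.

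In striatum the Q140 allele was accompanied mainly by lower levels of these genes. Between Q140 and wild-type mice, 24 of the 47 tested members fell and 6 rose at an adjusted p under 0.05 (edgeR quasi-likelihood test, Benjamini-Hochberg over 17503 genes). Among all genes tested, 14.2% were called lower and 15.5% higher. The counts by family below are from this comparison and stand beside these shares. The median log2 fold change of the members was -0.15, against 0.01 for all genes. The same comparison on FPKM (the authors' counts scaled by gene length and library total) gave 19 lower and 12 higher. That comparison, which also used limma and another filter, called 7.43% of all genes lower and 26.4% higher. FPKM carry no TMM factor, and the median log2 fold change of all genes there was 0.08 (pseudocount 0.1). In 15 members all 8 Q140 mice lay below all 8 wild-type mice, and in 1, Dlg3, all lay above. Groups separated in this way, lower or higher, for 4.21% and 2.9% of all genes. Markers of striatal projection neurons moved with these falls: 11 of 12 fell and 1, Tac1, rose, and their sum ranged from 9087 to 9577 CPM in Q140 striatum, against 14950 to 17140 in wild type. Other marker lists were lower too, without overlap between the groups: all 4 microglial markers fell (sum 217.4 to 254.0 CPM in wild type, 188.7 to 212.8 in Q140), 2 of 3 endothelial markers did (112.0 to 124.8 and 94.26 to 107.8) and 3 of 6 astrocyte markers did (3745 to 4293 and 3308 to 3517). Bulk RNA cannot tell fewer cells of a type from less RNA per cell. None of the 12 projection neuron markers was at 0, and the part of these lists in the members' values was not tested.

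**Figure D1:**
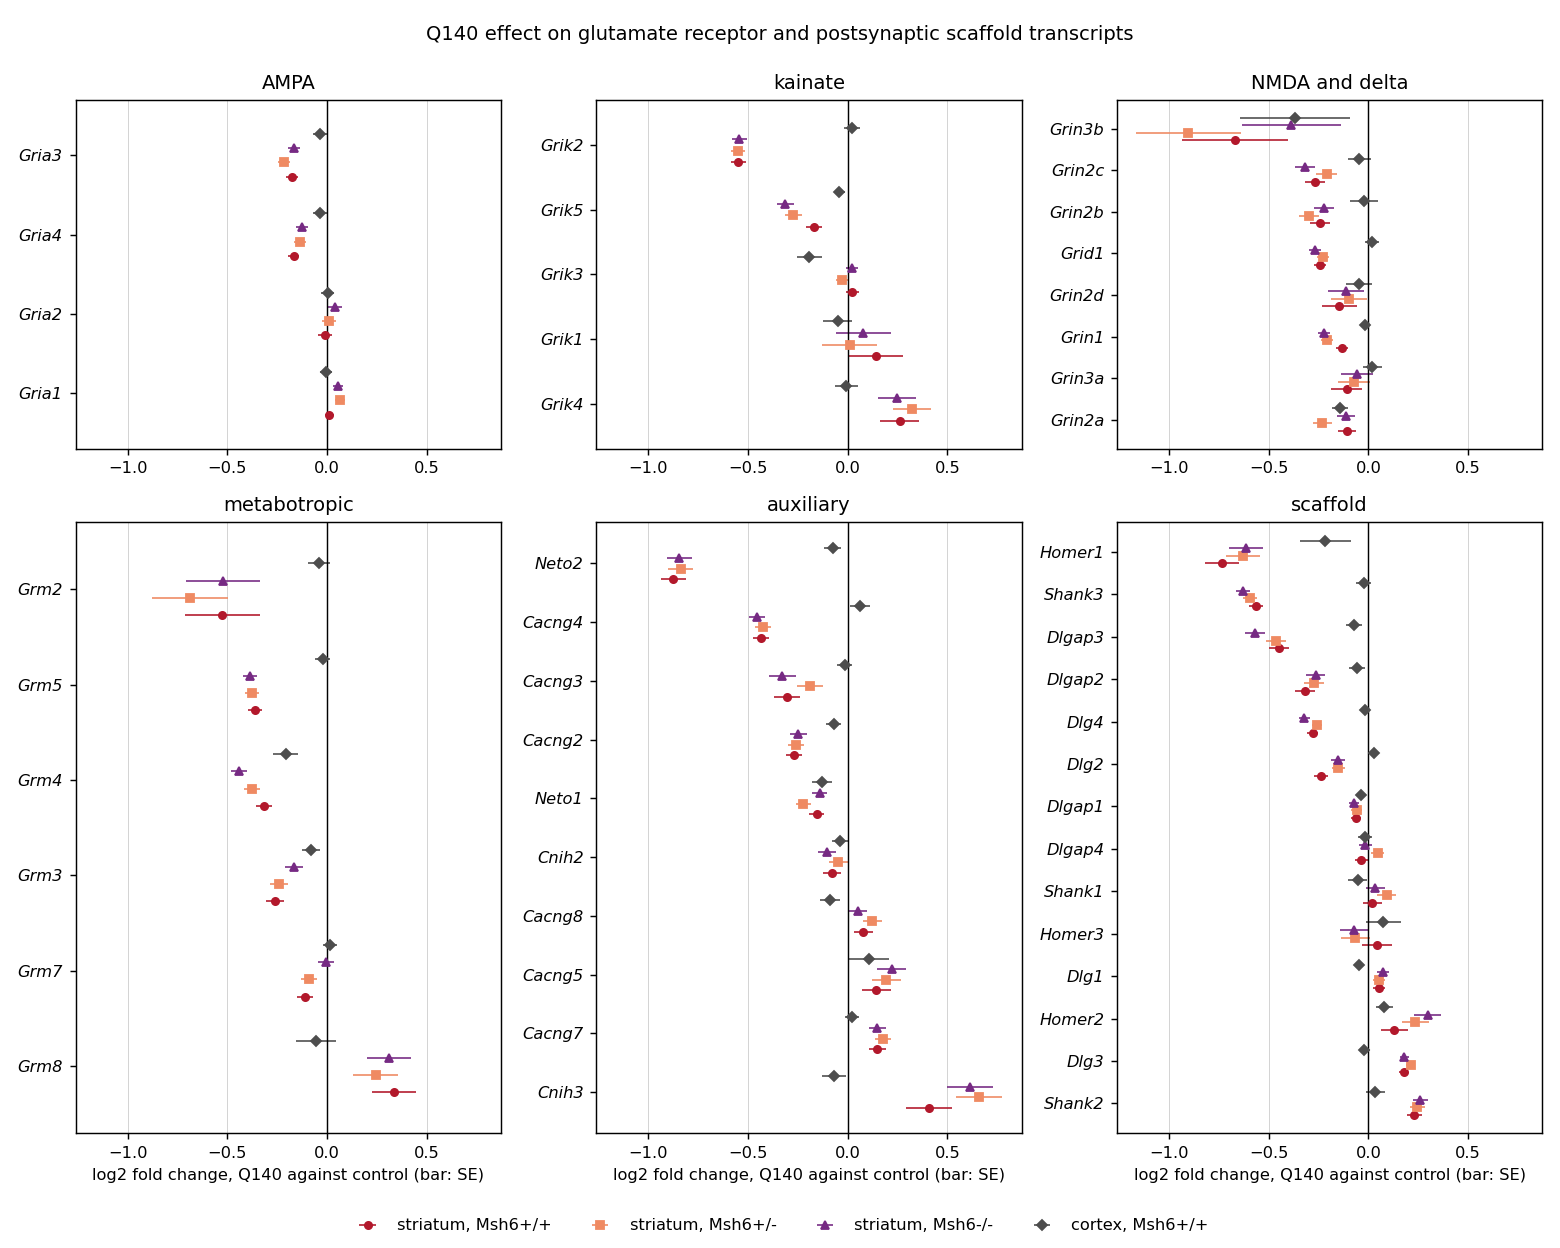
Log2 fold changes with SE for the 47 tested genes, in 6 panels by family, for Q140 against control mice of the same Msh6 genotype in striatum (circles, squares and triangles) and for Q140 against wild type in cortex (diamonds). The 3 striatal estimates lie close together for most genes, with Neto2 near -0.85 and Cnih3 between 0.41 and 0.66, while the cortical estimates lie nearer to 0 for most.

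AMPA receptors carry most fast excitatory transmission. The minor subunits of the striatal set fell and the major ones did not pass the test: 2 of 4 fell and none rose. Gria3 ranged from 196.7 to 235.5 CPM in Q140 striatum (median 224.1), below every wild-type mouse (238.2 to 255.2, median 251.5), and the log2 fold change (± SE) was -0.18 ± 0.029, with an adjusted p of 2.74e-06. Gria4 was 78.6 to 88.4 CPM (median 81.9) in Q140 and 86.9 to 97.0 (median 93.3) in wild type, with a narrow overlap (log2 fold change -0.17 ± 0.030, adjusted p = 1.42e-05). Gria1, at 578.9 to 637.7 CPM (median 609.5) in Q140 and 584.4 to 646.3 (median 599.6) in wild type, had overlapping groups and a log2 fold change of 0.01 ± 0.025 (adjusted p = 0.766). Gria2, the subunit that makes the channel impermeable to calcium, had a log2 fold change of -0.01 ± 0.036 (adjusted p = 0.857). On FPKM, Gria1 passed the test as higher (log2 fold change 0.08 at a pseudocount of 0.1, adjusted p = 0.00327). The median log2 fold change of all genes in that fit was also 0.08. Per length, Gria1 made up 49.1% ± 1.71 and Gria2 31.4% ± 1.64 of the AMPA subunit FPKM in wild-type striatum (SD, n = 8), and Gria3 12.4% ± 0.287. The Gria3 share was 11.2% ± 0.434 in Q140.

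Kainate receptors modulate release and excitability. Grik2, a channel-forming subunit, had the lowest adjusted p of the receptors: 109.5 to 127.2 CPM in Q140 (median 118.0) against 158.6 to 186.9 in wild type (median 174.7), with no overlap. It fell by 31.6% (log2 fold change -0.55 ± 0.037, adjusted p = 3.1e-17). Grik5, a subunit that forms channels only with others, fell by less (log2 fold change -0.17 ± 0.042, adjusted p = 0.00142), from 252.1 to 350.3 CPM in wild type (median 316.1) to 250.2 to 312.9 in Q140 (median 280.9), and the groups overlapped. Grik4, its relative, rose from a low level (8.08 to 11.8 CPM, median 8.43, in wild type and 8.48 to 13.3, median 10.7, in Q140; log2 fold change 0.26 ± 0.097, adjusted p = 0.0354), with overlapping groups. Grik1 and Grik3 had log2 fold changes of 0.14 ± 0.14 and 0.02 ± 0.031 (adjusted p = 0.472 and 0.614). Grik4 missed the threshold when only the Q140 and wild-type libraries were fitted (adjusted p = 0.0643), and Grik5 missed it on FPKM (adjusted p = 0.0834 at a pseudocount of 0.1).

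NMDA receptors admit calcium and need the Grin1 subunit together with Grin2 or Grin3 subunits. No member of this group rose and 4 of 8 fell. Grin2b, the main Grin2 subunit of the striatum by FPKM, was 486.0 to 632.8 CPM in Q140 (median 581.8) and 614.4 to 799.5 in wild type (median 685.3), a log2 fold change of -0.24 ± 0.051 (adjusted p = 0.000155) with a narrow overlap. Grin2c, the subunit also found in astrocytes, fell by 16.9% with no overlap, from 57.2 to 71.4 CPM (median 63.7) to 47.8 to 56.1 (median 53.8), adjusted p = 3.79e-05. The part of the lower astrocyte markers, none of them at 0, in the Grin2c value was not tested. Grid1, a delta receptor that bridges synapses through cerebellins, fell from 103.9 to 118.1 CPM (median 112.9) to 90.9 to 101.3 (median 94.2), again without overlap (log2 fold change -0.24 ± 0.030, adjusted p = 3.88e-09). Grin1 fell by 8.85% (741.9 CPM at the wild-type median and 681.3 at the Q140 median, adjusted p = 0.000688), and missed the threshold on FPKM (adjusted p = 0.0895 at a pseudocount of 0.1).

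The other 4 NMDA subunits did not pass the test. Grin2a, the subunit that gives NMDA receptors faster decay, had a log2 fold change of -0.11 ± 0.047 (adjusted p = 0.0785), Grin2d -0.15 ± 0.088, Grin3a -0.11 ± 0.079 and Grin3b -0.67 ± 0.27. Grin3b averaged 0.666 CPM in wild-type striatum, so its estimate rests on a handful of reads per library. It crossed the threshold under RLE scaling (adjusted p = 0.0485), with no sex term (0.0499) and without mouse 21-3 (0.0471), and lay just outside it otherwise (0.0509).

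Metabotropic receptors fell in 5 of 6 tested cases and 1 rose. Grm5, the receptor that couples to phospholipase C and binds Homer proteins, fell by 22.2%: its 8 Q140 mice ranged from 402.0 to 444.5 CPM (median 433.8) and its 8 wild-type mice from 522.7 to 579.9 (median 550.7), adjusted p = 4.16e-12. Grm4, a presynaptic receptor, fell from 101.6 to 121.6 CPM (median 108.1) to 78.4 to 95.6 (median 88.7), also with no overlap (log2 fold change -0.32 ± 0.041, adjusted p = 1.58e-08). Grm3, of neurons and astrocytes, fell from 92.8 to 111.0 CPM (median 99.9) to 74.4 to 91.0 (median 86.5), the groups meeting without overlap (log2 fold change -0.26 ± 0.045, adjusted p = 6.45e-06). Grm2, the close relative of Grm3, was near its detection limit in striatum at 1.23 ± 0.251 CPM in wild type and 0.859 ± 0.310 in Q140 (adjusted p = 0.0275), and missed the threshold with no count filter (adjusted p = 0.0576). Grm7 fell by 7.39% (adjusted p = 0.0305), a call lost on FPKM (adjusted p = 0.525 at a pseudocount of 0.1) and with the animal number prefix as a covariate (0.0564). Grm8 rose from 8.73 ± 1.73 to 11.1 ± 1.69 CPM (log2 fold change 0.34 ± 0.11, adjusted p = 0.0154).

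Among auxiliary subunits 5 of 10 fell and 2 rose. Neto2, an auxiliary subunit of kainate receptors, had the most negative log2 fold change of the 47 members, -0.88 ± 0.062 (adjusted p = 2.17e-16): Q140 mice ranged from 93.2 to 126.5 CPM (median 110.5) and wild-type mice from 175.4 to 229.2 (median 202.1). Its relative Neto1 fell by 10.3% (adjusted p = 0.000769), a call lost on FPKM (adjusted p = 0.0583 at a pseudocount of 0.1). The transmembrane AMPA receptor regulatory proteins (TARPs) split: Cacng4 fell by 26.0% with no overlap (178.9 to 217.0 CPM, median 198.7, in wild type; 133.3 to 162.7, median 148.7, in Q140; adjusted p = 1.76e-12). Cacng2, or stargazin, fell from 85.3 to 105.7 CPM (median 94.9) to 75.7 to 86.9 (median 77.1), with 1 Q140 mouse inside the wild-type range (log2 fold change -0.27 ± 0.041, adjusted p = 7.33e-07), and Cacng3 fell by 19.1% (adjusted p = 0.000285). Cacng7 rose by 10.9% (adjusted p = 0.00424). Cacng5, Cacng8 and the cornichon Cnih2 had log2 fold changes of 0.14 ± 0.071, 0.08 ± 0.048 and -0.08 ± 0.046 (adjusted p = 0.126, 0.224 and 0.198). Cnih3, the other cornichon, which slows AMPA receptor closing, rose from 7.64 ± 2.05 to 10.2 ± 1.45 CPM (log2 fold change 0.41 ± 0.11, adjusted p = 0.00441), with overlapping groups.

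Of the 14 scaffold genes 6 fell and 2 rose, where 14.2% and 15.5% of all genes did. Shank3 had the lowest adjusted p of the 47 members. Shank3, the scaffold that ties the Dlgap and Homer layers to actin, was 399.1 to 431.6 CPM in Q140 striatum (median 412.6) and 580.8 to 670.5 in wild type (median 600.8), a fall of 32.4% (log2 fold change -0.56 ± 0.035, adjusted p = 1.21e-18). Dlg4, the main scaffold that binds AMPA receptor-TARP complexes and NMDA receptors, fell from 946.4 to 1041 CPM (median 985.5) to 790.3 to 863.0 (median 811.0), with no overlap (log2 fold change -0.28 ± 0.027, adjusted p = 5.16e-12). Dlgap3, which binds Dlg4 and Shank3, fell by 26.8% (639.8 to 752.8 CPM, median 697.7, in wild type; 467.2 to 539.2, median 502.8, in Q140; adjusted p = 2.92e-10). Homer1, the linker of Grm5 to Shank, fell by 39.9% (log2 fold change -0.73 ± 0.086, adjusted p = 1.32e-09) and varied among mice, from 227.5 to 393.4 CPM in wild type and 139.7 to 199.1 in Q140. Counts per gene cannot separate the long Homer1 forms from the short, activity-induced one. Dlgap2 and Dlg2 fell by 19.8% and 15.1% (adjusted p = 5.75e-07 and 3.57e-07).

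Shank2 and Dlg3 rose where Shank3 and Dlg4 fell. Shank2 went from 131.5 to 150.6 CPM (median 138.3) in wild type to 147.9 to 174.0 (median 164.1) in Q140 (log2 fold change 0.23 ± 0.037, adjusted p = 2.34e-06), and Dlg3 from 180.0 to 196.4 CPM (median 187.2) to 202.7 to 215.3 (median 213.8), with no overlap (log2 fold change 0.18 ± 0.021, adjusted p = 3.48e-09). Shank1, Homer2, Homer3, Dlg1, Dlgap1 and Dlgap4 did not pass the test, with log2 fold changes from -0.06 (Dlgap1, adjusted p = 0.0701) to 0.13 (Homer2, adjusted p = 0.157). Dlgap1 crossed the threshold with DESeq2 (adjusted p = 0.029), under RLE scaling (0.0383) and with the prefix covariate (0.0445), but its fold change was 0.01 on FPKM, of the opposite sign. Conversely Homer2 and Dlg1 crossed the threshold on FPKM (0.0255 and 0.000471 at a pseudocount of 0.1). All genes had a median log2 fold change of 0.08 or 0.05 on FPKM (pseudocount 0.1 or 1). The Dlgap1 sign there is therefore not read as a result. A second row that carries the symbol Dlg2, at 2.38 ± 0.477 CPM in wild type and 2.35 ± 0.349 in Q140, is left out of the counts.

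Because relatives moved apart, the make-up of several families differed between Q140 and wild-type striatum. These shares of the family's summed FPKM compare genes per length, and cancel the scaling between libraries; they are given as values without a test. Shank3 held 73.7% ± 0.619 of Shank FPKM in wild type and 63.3% ± 0.763 in Q140, Shank2 14.0% ± 0.416 and 20.9% ± 0.799, and the ranges of the 8 mice did not overlap for either. The ratio of Shank2 to Shank3 was 0.190 ± 0.00626 in wild type, 0.330 ± 0.0154 in Q140, and 0.346 ± 0.0164 in Q140 Msh6-/- mice against 0.187 ± 0.0101 in Msh6-/- mice. Among Homer genes, Homer1 held 87.1% ± 1.40 in wild type and 79.4% ± 1.70 in Q140, and the ratio of Homer2 to Homer1 was 0.0619 ± 0.00822 and 0.112 ± 0.00997. The ratio of Dlg3 to Dlg4 was 0.161 ± 0.00363 and 0.221 ± 0.00568, the latter close to the value of wild-type cortex, 0.230 ± 0.00797. The other ratios were far from their wild-type cortex values. Those were 0.780 ± 0.0276 for Shank2 to Shank3, 0.31 ± 0.0591 for Homer2 to Homer1 and 0.644 ± 0.0482 for Grin2a to Grin2b. Neto2 held 41.7% ± 1.55 of the Neto pair in wild type and 30.3% ± 2.03 in Q140. Within the TARPs, Cacng4 held 29.9% ± 1.11 and 24.6% ± 1.04, and Cacng7 24.7% ± 1.22 and 30.4% ± 1.71. Summed FPKM went from 91.0 ± 3.63 in wild type to 75.4 ± 2.19 in Q140 for Shank genes, from 206.5 ± 7.05 to 170.1 ± 4.35 for Dlgap genes and from 121.5 ± 3.51 to 104.6 ± 3.14 for metabotropic receptors, with no overlap between mice. For AMPA subunits the sums were 199 ± 3.18 and 205 ± 5.36, and overlapped. Unlike the shares, these sums keep the scaling between libraries. The median log2 fold change of all genes on FPKM was 0.08 between these groups (pseudocount 0.1). The ratio of Grin2a to Grin2b differed less, 0.262 ± 0.0219 in wild type and 0.289 ± 0.0235 in Q140, with overlapping mice.

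**Figure D2:**
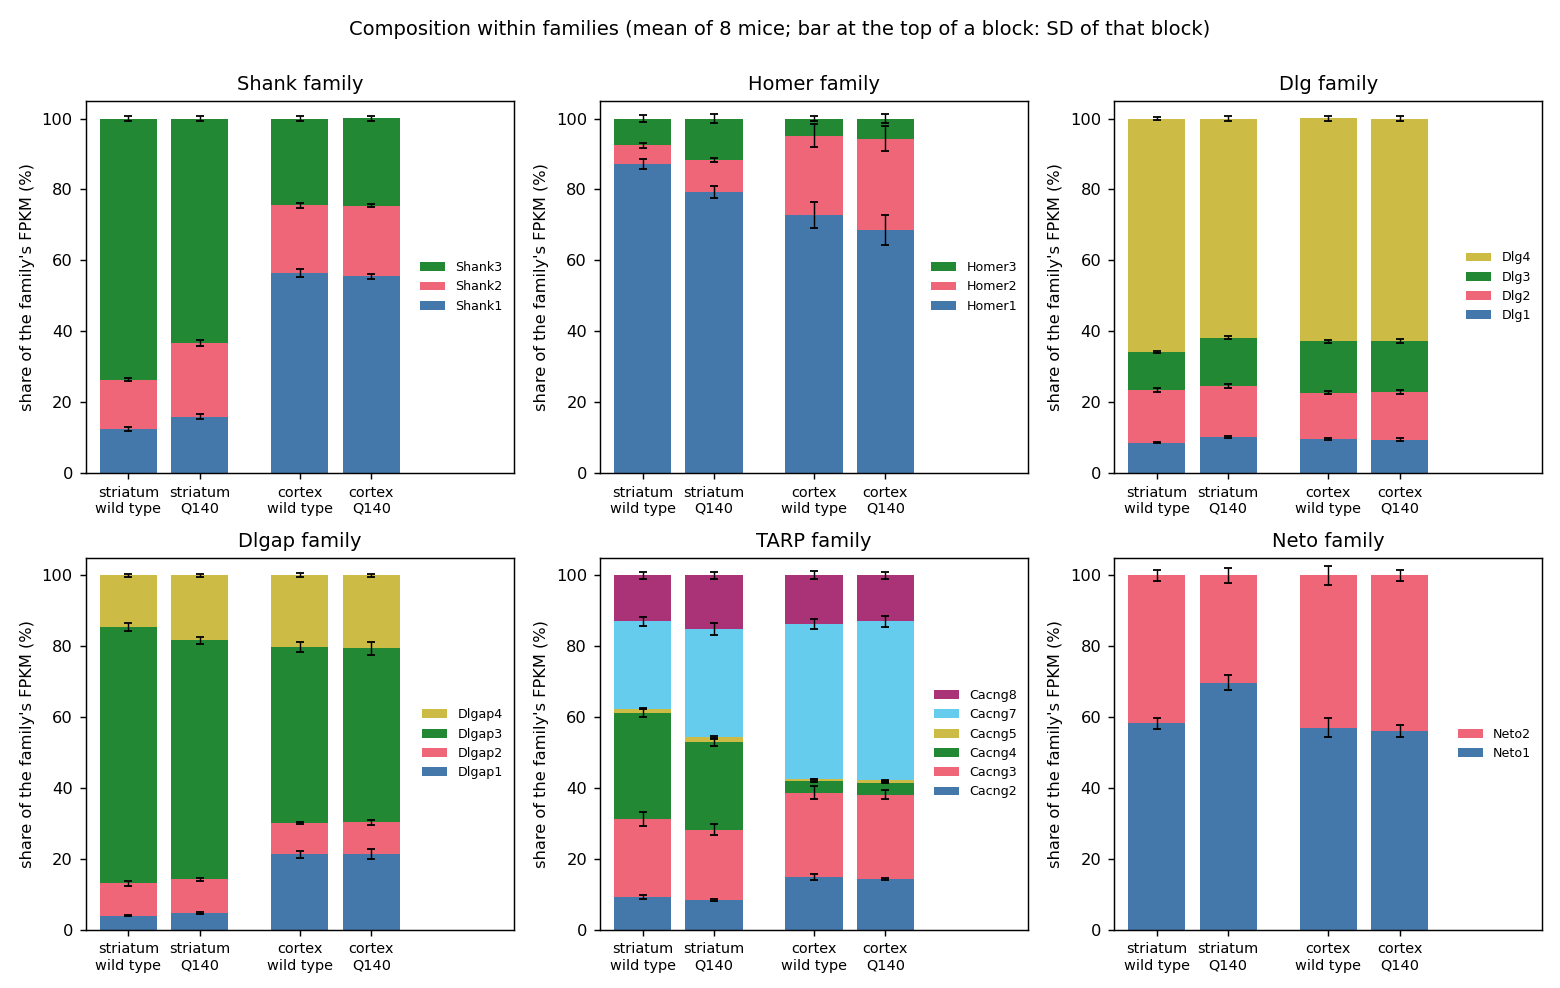
Share of each family's summed FPKM held by each gene, in percent, as stacked bars of means over 8 mice for wild-type and Q140 striatum and cortex, with the SD of each block drawn at its top. In striatum the Shank3 block goes from 73.7% to 63.3% and the Neto2 block from 41.7% to 30.3%, while in cortex Shank3 holds 24.5% and 24.6%.

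The comparison was repeated in mice lacking 1 or both copies of Msh6, with no library shared between the 3 pairs of groups. In Q140 Msh6+/- against Msh6+/- striatum 25 members fell and 9 rose (14.9% and 16.3% of all genes), and in Q140 Msh6-/- against Msh6-/- striatum 24 fell and 8 rose (15.2% and 17.8%). On FPKM the latter pair gave 19 lower and 13 higher (8.16% and 27.8%). Lower in all 3 pairs were 23 of 47 members, or 48.9%, against 9.88% of all genes tested, and higher in all 3 were 5 members, or 10.6%, against 9.34%. The 23 were Gria3 and Gria4; Grik2 and Grik5; Grin1, Grin2b, Grin2c and Grid1; Grm2, Grm3, Grm4 and Grm5; Cacng2, Cacng3, Cacng4, Neto1 and Neto2; and Dlg2, Dlg4, Dlgap2, Dlgap3, Shank3 and Homer1. The 5 were Grik4, Cacng7, Cnih3, Dlg3 and Shank2. No member was called in opposite directions, 9 were called in 1 or 2 pairs, and 10 in none: Gria2, Grik1, Grik3, Grin2d, Grin3a, Cnih2, Dlg1, Dlgap4, Shank1 and Homer3.

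By family, the Msh6+/- pair had 2 AMPA, 2 kainate, 6 NMDA or delta, 4 metabotropic, 5 auxiliary and 6 scaffold genes lower, and the Msh6-/- pair 2, 2, 4, 4, 5 and 7. Among the 9 called in 1 or 2 pairs, Homer2 rose in both Msh6-mutant pairs (log2 fold changes 0.24 ± 0.070 and 0.30 ± 0.070, adjusted p = 0.00699 and 0.000673), and Grin2a fell in the Msh6+/- pair (-0.23 ± 0.047, adjusted p = 0.000102). Gria1 rose in that pair (0.07 ± 0.025, adjusted p = 0.0319), and in the Msh6-/- pair its log2 fold change was 0.05 ± 0.025 (adjusted p = 0.0833). Grm8 rose in the Msh6+/+ and Msh6-/- pairs, and in the Msh6+/- pair it had a log2 fold change of 0.24 ± 0.11 (adjusted p = 0.0913). None of these members passed the tests for a different Q140 effect between Msh6 genotypes, which are given with the other tests of Msh6.

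Sizes were close among the pairs. Shank3 had log2 fold changes of -0.56, -0.59 and -0.63 in Msh6+/+, Msh6+/- and Msh6-/- mice, Grik2 -0.55, -0.55 and -0.54, Neto2 -0.88, -0.84 and -0.85, and Homer1 -0.73, -0.63 and -0.61. Cnih3 had 0.41, 0.66 and 0.61, and Shank2 0.23, 0.24 and 0.26. Shank3 in Q140 Msh6-/- striatum ranged from 383.8 to 442.0 CPM (median 407.7), below every Msh6-/- mouse (574.3 to 669.6, median 640.8). Neto2 there ranged from 99.7 to 119.8 CPM (median 111.2), again below every Msh6-/- mouse (163.7 to 233.0, median 203.6). Cnih3, which overlapped between Q140 and wild type, did not in Q140 Msh6-/- (9.08 to 13.5 CPM, median 10.5) against Msh6-/- striatum (5.24 to 8.88, median 6.97). Averaged over the 3 Msh6 genotypes, 24 Q140 against 24 other mice, 29 members fell and 11 rose (23.6% and 29.1% of all genes).

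The 4 called members with the most negative log2 fold change in Q140 striatum and the one with the largest rise are shown with the sequence before their start. RefSeq promoter entries (GRCm38.p6) matched 34 of the 48 members by symbol, with 50 entries. The 250 bases before the start, 5′ to 3′ on the gene's strand, are given for Shank3 (ENSMUSG00000022623, gene at chr15:89499623-89560261, plus strand; bases chr15:89499358-89499607), Neto2 (ENSMUSG00000036902, chr8:85636588-85700924, minus strand; bases chr8:85700925-85701174, the farther upstream of its entries), Grik2 (ENSMUSG00000056073, chr10:49094833-49788766, minus strand; bases chr10:49788755-49789004), Homer1 (ENSMUSG00000007617, chr13:93299635-93405129, plus strand; bases chr13:93303507-93303756, before the first of its RefSeq entries, inside the annotated gene span) and Cnih3 (ENSMUSG00000026514, chr1:181352628-181460641, plus strand; bases chr1:181352378-181352627). Gene positions are from GENCODE M21 on GRCm38, and the last of the Grik2 bases lie inside the annotated gene span. Capitals mark a match to the GC box letters GGGCGG on either strand.
Shank3: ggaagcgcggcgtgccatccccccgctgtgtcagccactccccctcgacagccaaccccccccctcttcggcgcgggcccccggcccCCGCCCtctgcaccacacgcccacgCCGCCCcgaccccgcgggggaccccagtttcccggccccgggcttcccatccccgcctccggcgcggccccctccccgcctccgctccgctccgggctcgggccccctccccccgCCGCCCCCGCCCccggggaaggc
Neto2: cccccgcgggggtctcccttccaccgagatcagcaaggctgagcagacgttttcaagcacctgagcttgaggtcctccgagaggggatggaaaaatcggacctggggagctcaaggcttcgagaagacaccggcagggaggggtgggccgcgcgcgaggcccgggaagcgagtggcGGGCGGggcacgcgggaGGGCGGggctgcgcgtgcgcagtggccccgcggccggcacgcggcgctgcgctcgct
Grik2: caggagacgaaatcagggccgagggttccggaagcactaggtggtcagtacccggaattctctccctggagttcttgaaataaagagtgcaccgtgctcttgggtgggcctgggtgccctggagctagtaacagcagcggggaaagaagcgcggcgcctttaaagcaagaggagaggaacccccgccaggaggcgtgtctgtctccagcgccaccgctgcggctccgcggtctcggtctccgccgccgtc
Homer1: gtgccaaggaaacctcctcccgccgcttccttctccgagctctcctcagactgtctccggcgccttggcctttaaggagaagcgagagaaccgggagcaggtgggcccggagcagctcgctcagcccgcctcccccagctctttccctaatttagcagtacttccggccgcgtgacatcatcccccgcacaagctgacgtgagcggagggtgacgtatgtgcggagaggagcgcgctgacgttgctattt
Cnih3: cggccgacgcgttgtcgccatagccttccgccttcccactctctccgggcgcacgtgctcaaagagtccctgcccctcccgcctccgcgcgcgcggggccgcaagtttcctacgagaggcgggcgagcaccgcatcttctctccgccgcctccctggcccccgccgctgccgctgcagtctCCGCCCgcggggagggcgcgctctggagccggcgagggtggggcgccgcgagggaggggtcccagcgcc
The GC box letters stood 4 times in the Shank3 bases, 2 times in those of Neto2, 1 time in those of Cnih3 and not in those of Grik2 and Homer1. Matches did not overlap each other. Over all 32851 RefSeq windows of that length 32.7% held the letters, and 22 of the 50 windows of members did. By gene, counting any of a gene's windows, 20 of the 34 members with an entry held them, among them 8 of the 16 that fell and 5 of the 5 that rose. Members without an entry are not in these counts, and a gene with more windows has more chances of a match. No share by gene over all genes is set beside them, so they are not read as a difference. The cyclic AMP response element letters TGACGTCA were in 0 of the members' 50 windows and in 1.55% of all windows. A match is a run of letters and no evidence of binding.

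**Figure D3:**
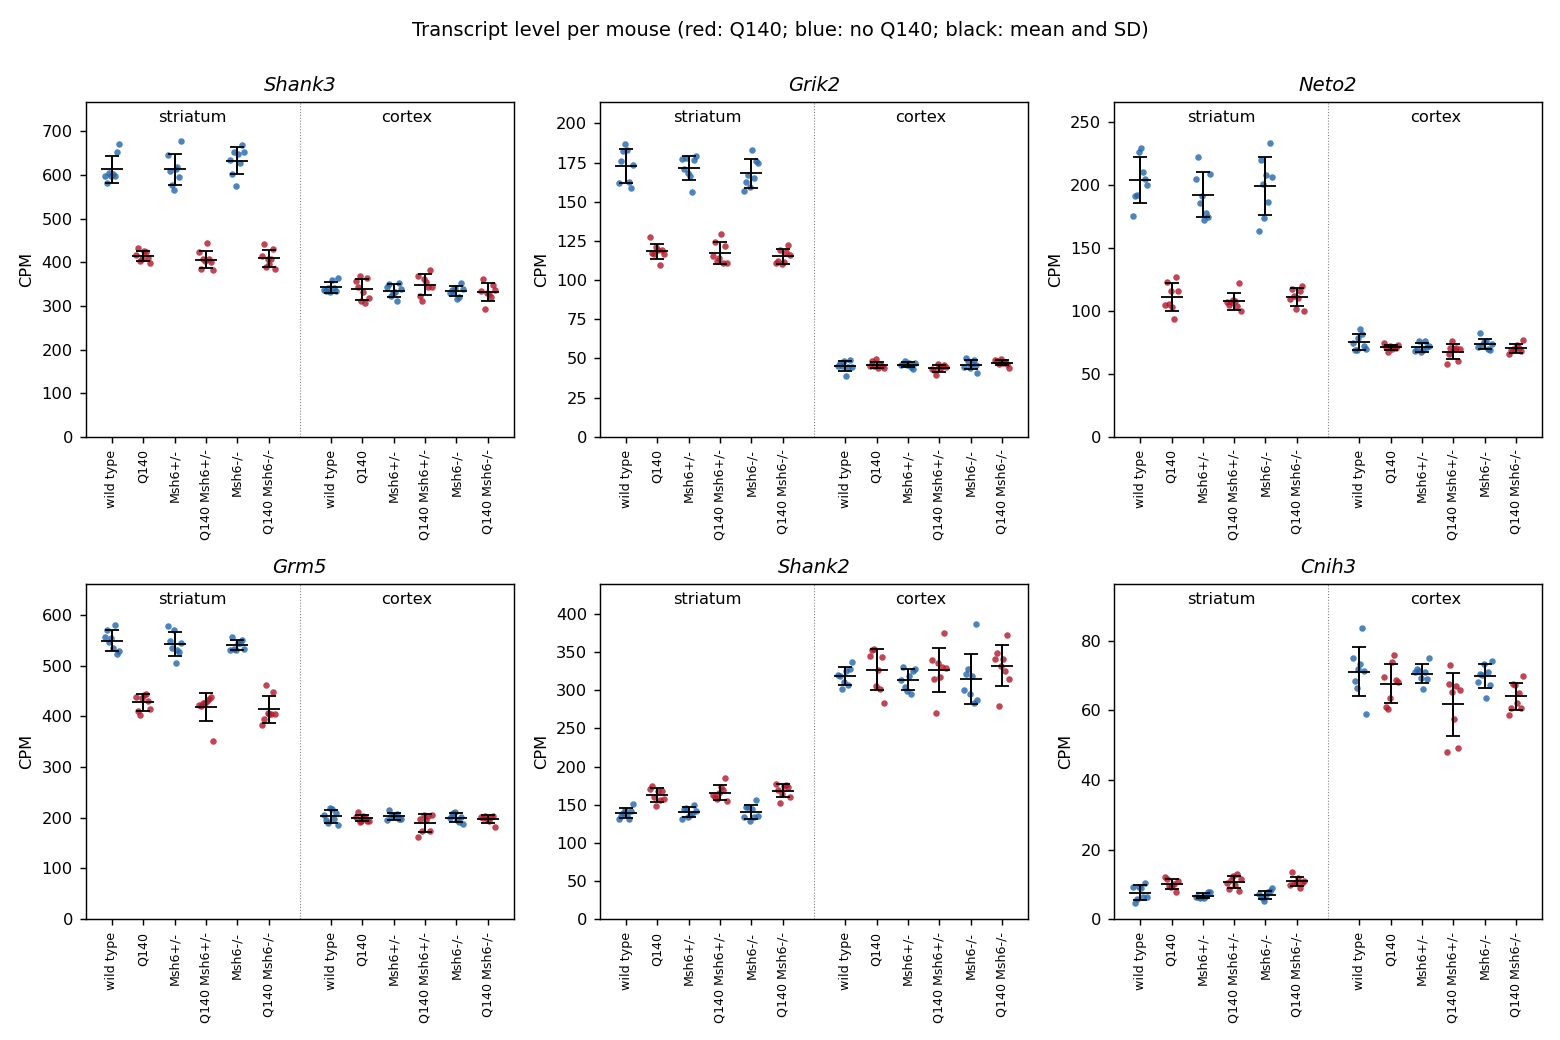
CPM of 6 members in every mouse, by genotype, in striatum (left) and cortex (right) of each panel, with the mean and SD in black. The Q140 mice (red) lie below the others (blue) in striatum for Shank3, Grik2, Neto2 and Grm5, with Shank3 at most 442.9 CPM in any Q140 mouse and at least 565.1 in any other, and no such separation is seen in cortex.

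Tests of Msh6 itself called none of the 47 members. This holds for Msh6+/- and Msh6-/- against wild type, for Q140 Msh6+/- and Q140 Msh6-/- against Q140, and for the difference of Q140 effects between Msh6 genotypes, in both tissues, with edgeR, DESeq2 and limma on FPKM alike. At an unadjusted p under 0.05 there were 1, 7, 2 and 0 members in the 4 striatal group comparisons and 0 and 3 in the striatal differences of effects (Msh6+/-, then Msh6-/-). In cortex the corresponding numbers were 1, 3, 8 and 3, and 1 and 1. The share of all genes at that unadjusted p is not set beside these counts, so they are not read as a result. The shares of all genes given further on are of genes called at an adjusted p under 0.05. The 2 members with the lowest p for a different Q140 effect in Msh6-/- striatum were Grik5 (-0.14 ± 0.060 on the log2 scale, edgeR adjusted p = 0.965) and Grm4 (-0.12 ± 0.058, adjusted p = 0.982). For Msh6-/- against wild type in striatum they were Grik5 (0.11 ± 0.042, edgeR adjusted p = 0.642) and Gria1 (-0.06 ± 0.025, adjusted p = 0.655). Few genes of the whole table were called either: 0.0114%, 0.0971%, 0.00571% and 0.177% in the 4 striatal group comparisons, 0.00567%, 0.131%, 0.0113% and 0.153% in the cortical ones, and 0 in each test of a different Q140 effect, all by edgeR. DESeq2 called 1 gene, no member, for the Msh6-/- difference in striatum and 1 for the Msh6+/- difference in cortex.

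Cortex showed smaller differences. No member was called in any of the 3 cortical Q140 comparisons by edgeR. Of all genes it called 0.017%, 0.193% and 0.136% in Msh6+/+, Msh6+/- and Msh6-/- mice. In the same order, 4, 12 and 4 members had an unadjusted p under 0.05. The share of all genes at that looser threshold is not set beside them, so these counts are not read as a result. DESeq2 called 1, 1 and 0 members lower, where it called 2.38%, 4.59% and 0.139% of the genes it gave an adjusted p, and limma on FPKM called 0 in each. The lowest p belonged to Grin2a in Msh6+/+ mice (297.3 CPM in wild type, 269.9 in Q140; log2 fold change -0.14 ± 0.040, edgeR adjusted p = 0.351) and to Dlgap1 in Msh6+/- mice (-0.09 ± 0.022, edgeR adjusted p = 0.0611). Averaged over the Msh6 genotypes 4 members fell and none rose, where 1.07% and 0.471% of all genes did. These were Dlgap1 (-0.06 ± 0.013 on the log2 scale, adjusted p = 0.00566), Grm4 (-0.14 ± 0.036, adjusted p = 0.0257), Grin2a (-0.09 ± 0.023, adjusted p = 0.0329) and Cnih3 (-0.13 ± 0.035, adjusted p = 0.0408). On FPKM 1 member was called lower, as were 0.42% of all genes. In cortex all 4 were lower, whereas in striatum Cnih3 was higher in Q140 mice.

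The difference between tissues was tested directly in a fit of all 96 libraries. The Q140 effect in Msh6+/+ mice was lower in striatum than in cortex for 15 of 47 members and higher for 4, where 6.89% and 7.42% of all genes were called. With the animal as a block, 18 were lower and 8 higher (8.81% and 9.59% of all genes); Grm3, Grin1 and Grin2b were added to the lower side, and Dlg1, Grm8, Grik4 and Cacng7 to the higher. The lowest adjusted p belonged to Grik2 (difference of log2 fold changes -0.56 ± 0.053, adjusted p = 6.36e-15), Shank3 (-0.54 ± 0.052), Neto2 (-0.79 ± 0.078), Cacng4 (-0.49 ± 0.064), Dlg4 (-0.26 ± 0.036), Grm5 (-0.33 ± 0.052), Dlg2 (-0.26 ± 0.042) and Dlg3 (0.20 ± 0.036, adjusted p = 1.04e-05). Shank3 in cortex was 332.0 to 364.7 CPM (median 338.3) in wild type and 307.6 to 369.2 (median 337.4) in Q140, fully overlapping. Grik2 in cortex was 38.7 to 48.7 CPM in wild type and 44.1 to 49.6 in Q140, and Neto2 68.7 to 85.7 and 67.2 to 74.2, so both groups overlapped there.

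Wild-type mice differed between the tissues in 41 of 47 members: 23 were higher in striatum and 18 in cortex (35.9% and 36.5% of all genes). Cacng4 was higher in striatum by 3.23 ± 0.046 on the log2 scale (198.3 against 21.1 CPM), Grik2 by 1.91 ± 0.038 and Grm5 by 1.41 ± 0.038. The other 5 of the 8 members with the lowest adjusted p were lower in striatum, namely Grm2 (-6.15 ± 0.092; 1.22 against 86.6 CPM), Cnih3 (-3.25 ± 0.089), Shank1 (-2.98 ± 0.053), Dlgap1 (-2.33 ± 0.026) and Homer2 (-2.20 ± 0.058). The leading Shank gene by FPKM differed between tissues: Shank3 held 73.7% of Shank FPKM in striatum and 24.5% in cortex, where Shank1 held 56.5%. Per length, the 3 most abundant members in wild-type striatum were Dlg4 (193 ± 3.98 FPKM), Cnih2 (149.8 ± 13.0) and Dlgap3 (149 ± 7.05), the last 2 within their spread, followed by Gria1 (97.8 ± 3.30) and Grin1 (75.0 ± 3.55). In cortex they were Dlg4 (155 ± 6.44), Dlgap3 (96.2 ± 5.78) and Shank1 (88.6 ± 3.61).

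The Q140 effect was also read by tissue preference, in Msh6-mutant pairs that share no library with the wild-type tissue comparison. In Q140 Msh6-/- against Msh6-/- striatum, 15 of the 23 members with more transcript in striatum fell and 1 rose (65.22% and 4.348%), where 25.73% and 11.99% of all striatum-higher genes did. Of the 18 with more in cortex 5 fell and 7 rose (27.78% and 38.89%), against 10.08% and 26.66% of all cortex-higher genes. Of the 6 members not called between the tissues 4 fell and 0 rose, against 7.261% and 14.56% of such genes, so falls were not limited to striatum-higher members. In the Msh6+/- pair 15 of 23 striatum-higher members fell and 2 rose (25.47% and 10.03% of all such genes), 5 of 18 cortex-higher members fell and 6 rose (9.456% and 25.93%), and 5 of the 6 others fell and 1 rose (7.51% and 12.55%). The difference between these classes was not tested. The 5 cortex-higher members that fell in the Msh6-/- pair were Gria3, Gria4, Grm2, Cacng2 and Dlgap1. The striatum-higher member that rose was Cacng5 (log2 fold change 0.22 ± 0.071, adjusted p = 0.0136). Markers of cortical glutamatergic neurons in striatum summed to 38.4 to 45.7 CPM in Q140 and 31.8 to 44.4 in wild type. Of these markers, 3 of the 7 tested were higher at an adjusted p under 0.05, as were 15.5% of all genes. Their part in the rises above was not tested.

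**Figure D4:**
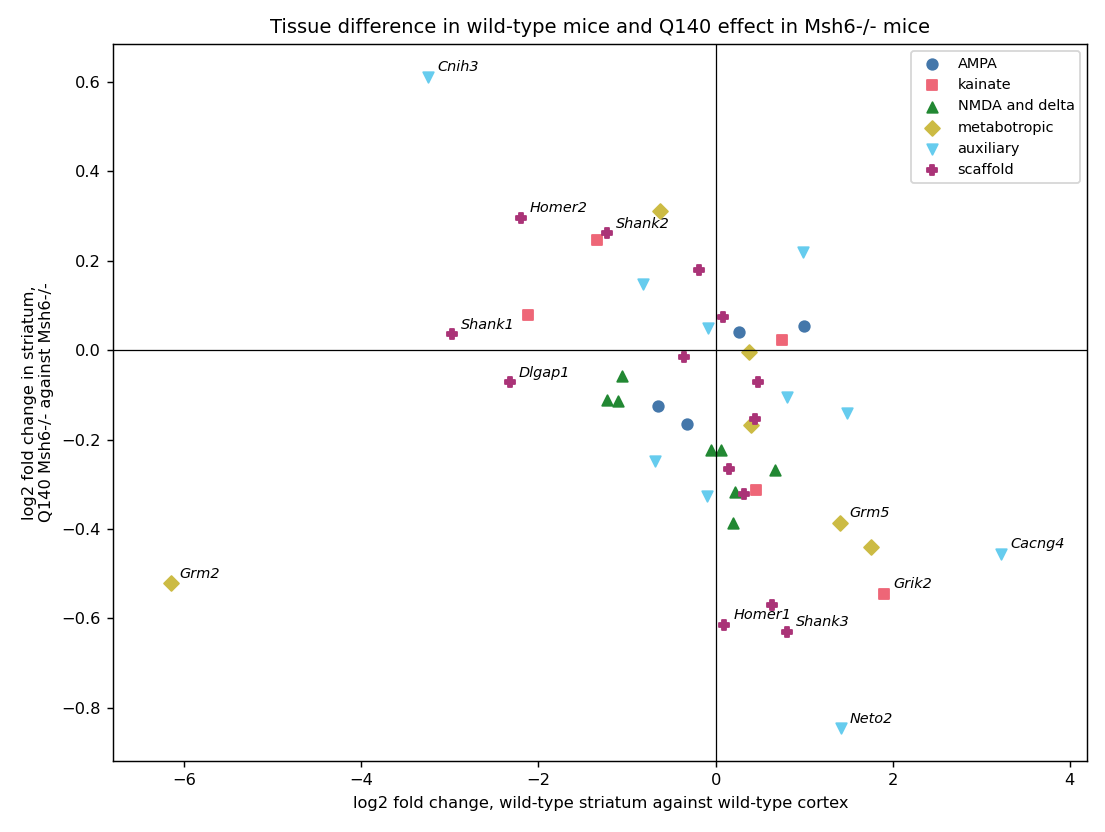
Each point is 1 of 47 members, with its log2 fold change between wild-type striatum and cortex on the horizontal axis and its log2 fold change in Q140 Msh6-/- against Msh6-/- striatum on the vertical axis; symbols mark the family. Members to the right, such as Cacng4 at 3.23 and Grik2 at 1.91, lie mostly below 0, and Cnih3, at -3.25 on the horizontal axis, lies at 0.61.

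Other genes of the same synapse were read from 3 lists, beside 14.2% of all genes lower and 15.5% higher in this comparison. Of 31 genes of postsynaptic signalling and adhesion, 19 fell and 4 rose in Q140 against wild-type striatum (median log2 fold change -0.18). Among them the calcineurin subunit Ppp3ca fell from 2907 to 2116 CPM (log2 fold change -0.46 ± 0.027), the calcium-calmodulin kinase Camk2b by 0.35 ± 0.022 and the spine protein Ppp1r9b (spinophilin) by 0.52 ± 0.049 on the log2 scale. Of 22 other receptor partners 6 fell and 4 rose: the AMPA receptor auxiliary subunit Gsg1l fell from 187.0 to 117.2 CPM (-0.67 ± 0.034) and the pentraxin receptor Nptxr by 0.31 ± 0.053, while Olfm3, a secreted partner of AMPA receptors, rose from 21.1 to 35.0 CPM (0.73 ± 0.054) and Cpt1c by 0.21 ± 0.034. Of 11 tested genes of glutamate release and uptake 5 fell and 2 rose. The astrocyte transporters Slc1a2 and Slc1a3 fell by 0.27 ± 0.034 and 0.14 ± 0.029, the neuronal transporter Slc1a1 by 0.23 ± 0.032, and Slc1a6 rose from 1.97 to 3.10 CPM. Slc1a2 and Slc1a3 are also among the 6 astrocyte markers.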

How the data were processed

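RNA-seq libraries of striatum and cerebral cortex from 48 mice were read as 2 tables, raw read counts per gene and FPKM, both deposited by the authors. Counts were made from STAR 2.7.5c alignments to GRCm38 (mm10) with SAMtools 1.10 and HTSeq 0.12.3, per the submitters' processing notes, from Illumina TruSeq stranded libraries, per the labels' protocols. Neither the annotation release nor the strand setting is given in the sources used here; reads of overlapping genes may be shared. The deposited FPKM equal the count divided by a fixed gene length and by the library's total, within 1% for 34661 of 34661 genes with a count.

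The 48 members were matched by gene symbol. They, the other lists and the tests were chosen with earlier results of these data known. In Q140 against wild-type striatum every member called was named, with values by mouse for 3 per family. Elsewhere up to 8 called members with the lowest adjusted p were named, or 2 where none was called, and up to 4 per other list. Members named beyond this in the other comparisons were chosen after their values were seen. Counts were tested with edgeR 4.0.16 (R 4.3.3) in 1 quasi-likelihood fit per tissue over 48 libraries (genotype and sex, TMM scaling, filterByExpr with a minimum count of 10 and total of 15), with p-values adjusted by Benjamini-Hochberg over all genes tested and a threshold of 0.05. Tissues were compared in a fit of all 96 libraries. Mice are separate animals, so the spread within a tissue is between animals. In the fit of all 96 libraries each mouse enters with both tissues and without a term for the animal. Only the alternative with the animal as a block pairs them. The SE of a log2 fold change is its absolute value divided by the square root of the F statistic. CPM are TMM-scaled counts. Alternatives were DESeq2 1.42.0, RLE scaling, no count filter, a fit without sex, a covariate for the prefix of the animal number, a fit of the compared libraries alone, leaving out mouse 21-3, and limma 3.58.1 on log2(FPKM + 0.1) or log2(FPKM + 1) with a mean FPKM of at least 0.1. Fold changes from limma are on that log scale and understate those of low genes. The labels tie the tissues to the same animal: over 18440 genes the median correlation of a mouse's cortical and striatal deviations was 0.0872 (-0.038 to 0.174), against -0.00205 between mice, and 28 of 48 mice matched best with themselves. Family shares, ratios and marker sums have no test. Library totals of 12.4 M to 22.9 M counts limit Grin3b and Grm2 in striatum, and the SD and ranges of CPM and FPKM cover the spread between mice.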

Additional observations from a re-analysis of the deposited data

Results flagged for a closer look

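In 9 of 216 groups of 8 mice checked, 1 mouse lay apart from the other 7 by more than Dixon's criterion, which chance gives in about 1 group in 20. In Q140 Msh6+/- striatum, Gria1 was 590.5 CPM in mouse 15-1 (others 615.8 to 636.2), Grm5 351.3 in mouse 26-4 (others 419.8 to 438.5), Neto2 122.3 in mouse 21-5 (others 99.69 to 108.6) and Cacng2 68.23 in mouse 14-4 (others 74.9 to 78.62). In Q140 Msh6-/- cortex, Gria1 was 284.9 CPM in mouse 38-1 (others 303.8 to 316.7). Wild-type mouse 16-2 was low for Grik2 in cortex, at 38.74 CPM (others 44.49 to 48.74), and for Grik5 in striatum, at 252.1 CPM (others 308.1 to 350.3). Cacng4 was 25.46 CPM in the cortex of wild-type mouse 13-2 (others 19.33 to 21.62), and Cacng2 was 86.85 CPM in the striatum of Q140 mouse 18-5 (others 75.72 to 79.9).

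The Q140 effect differed between striatum and cortex, by the edgeR test of the difference, in 19 members. On the log2 scale, striatum minus cortex, the difference was negative among receptors for Grik2 (-0.5641), Grm5 (-0.334), Grid1 (-0.2561), Grin2c (-0.2164) and Gria3 (-0.1361). It was negative among auxiliary subunits for Neto2 (-0.7945), Cacng4 (-0.4916), Cacng3 (-0.2848) and Cacng2 (-0.1937). Among scaffolds it was negative for Shank3 (-0.5363), Homer1 (-0.5105), Dlgap3 (-0.371), Dlg2 (-0.2567), Dlg4 (-0.2559) and Dlgap2 (-0.2546). It was positive for Cnih3 (0.4792), Grik3 (0.2211), Dlg3 (0.2011) and Shank2 (0.2007). Of these members, Grik3 alone was not called by edgeR in Q140 against wild-type striatum.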

How the results depend on the processing

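Of the recomputed counts of members called, 342 were equal to the reported count or within 1.5 times of it, and 10 were not. Comparisons with no member called in either fit are among the 342, so that number says little about the other counts. No member called in the reported edgeR comparison of Q140 and wild-type striatum changed sign. Dlgap1, not called there but called lower under DESeq2, RLE scaling and the prefix covariate, had the opposite sign on FPKM (0.01). On FPKM (either pseudocount) 12 members were higher in Q140 against wild-type striatum and 13 in Q140 Msh6-/- against Msh6-/- striatum, and 1 was lower in cortex averaged over Msh6 genotypes. DESeq2 called 1 lower member in Q140 against wild-type cortex and 1 in Q140 Msh6+/- against Msh6+/- cortex, where only 882 and 2590 genes kept an adjusted p after its filter. For the tissue difference of the Q140 effect, 2 members were higher with no filter and 8 with the animal as replicate block, which pairs the tissues. The block also called Cacng3 lower in wild-type striatum than cortex (adjusted p = 0.0244), and it changed no other call beyond these and the 7 named above. In Q140 against wild-type striatum, FPKM lost Grik5, Grin1, Grm2, Grm7 and Neto1 and gained Gria1, Grik3, Cacng5, Cacng8, Dlg1 and Homer2. The median log2 fold change of all genes in this comparison was 0.08 on FPKM (pseudocount 0.1) and 0.01 in the reported fit. No filter or only the libraries compared lost Grik4 and Grm2, the prefix covariate lost Grm7, and Grin2a (only the libraries compared), Grin3b and Dlgap1 were gained elsewhere. The cause was not tested. The average over Msh6 genotypes has no value with only the libraries compared.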
